A study of Mus musculus with 46 samples.

Results

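The genes described here are the 6 members of the C/EBP family of bZIP transcription factors, Cebpa, Cebpb, Cebpd, Cebpe, Cebpg and Ddit3, in the liver of mice on 2 diets. They were taken by symbol from a count table of 25494 genes, and all 6 were among the 13494 genes with enough counts to be tested. All animals were male C57BL/6 mice, moved from chow to their diets as young animals and kept on them for months, so both groups share strain, sex and feeding scheme. One group ate a high fat diet, which the study calls lipid-rich (LD), and the other a low fat diet, which it calls carbohydrate-rich (CD). The study asked how liver gene expression, enhancers and promoter contacts differ between the diets. RNA-seq of total RNA depleted of ribosomal RNA covered 5 mice per diet, ChIP-seq covered H3K27ac in 3 mice per diet and Hnf4α and C/EBPα in 2 per diet each, and Hi-C and promoter capture Hi-C (PCHi-C) covered 2 mice per diet, pooled in the lists used here. The p-values below measure the spread between these mice of a single cohort and strain.

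C/EBP proteins bind DNA as dimers through a leucine zipper, and the family members recognise much the same palindromic site. C/EBPα keeps hepatocytes differentiated and drives genes of gluconeogenesis, the urea cycle and plasma proteins, whereas C/EBPβ and C/EBPδ are induced by cytokines and switch on acute phase genes. C/EBPε is known from granulocyte maturation, C/EBPγ lacks an activation domain and works through its partners, and CHOP, the product of Ddit3, is induced by the stress kinases of the endoplasmic reticulum and pairs with other members to alter where they bind.

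The libraries held 31707963 to 39012699 counted read pairs per mouse, and log2 expression of mice on one diet correlated at 0.982 to 0.993. Hepatocyte genes dominated every library, as the tissue label requires: albumin (Alb) stood at 67059 ± 6199 CPM (counts scaled to library size; SD, n = 5) on LD, with an adjusted p of 0.614 for the diet difference in edgeR's quasi-likelihood test. Granulocyte genes stood apart in LD mouse 2, whose 9 markers summed to 102 CPM against 4.38 to 5.67 CPM in the other LD mice and 1.94 to 3.37 CPM in the CD mice. Total H3K27ac peak length also differed by diet, at 150 to 160 Mb in the LD mice and 140 to 145 Mb in the CD mice. Over sites found in all 4 samples, the median C/EBPα peak was 24.0 and 25.5 normalised tags high in the LD mice and 37.5 and 25.0 in the CD mice, and the median Hnf4α peak reached 35.8 and 33.5 on LD, against 21.5 and 42.8 on CD. In whole liver, fewer cells of a type and less RNA per cell cannot be told apart.

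On a scale per length (TPM, the deposited level corrected for gene length and library size), Cebpa was by far the most abundant member on both diets. It averaged 230 ± 15.9 TPM on LD and 261 ± 17.9 TPM on CD (SD, n = 5), higher than 96.9% of genes with a value. Cebpb followed at 46.0 ± 8.95 TPM on LD and 36.2 ± 6.43 TPM on CD. Cebpg came next at 27.8 ± 2.92 TPM on LD and 27.7 ± 2.09 TPM on CD. Cebpb and Cebpg did not overlap on LD, where the lowest Cebpb mouse was at 37.8 TPM and the highest Cebpg mouse at 31.9 TPM. On CD they did not overlap either, but the ranges nearly met, with the lowest Cebpb mouse at 30.7 TPM and the highest Cebpg mouse at 30.6 TPM.

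The 3 remaining members were low. Cebpe averaged 13.8 ± 2.14 TPM on LD and 8.42 ± 1.86 TPM on CD, and Ddit3 averaged 10.5 ± 1.18 and 8.12 ± 1.12 TPM. These neighbours overlapped on both diets: the lowest Cebpe mouse on LD was at 11 TPM and the highest Ddit3 mouse at 11.6 TPM, and on CD Cebpe spanned 6.63 to 11.3 TPM and Ddit3 7.08 to 9.96 TPM. Cebpd was the lowest at 5.39 ± 2.11 TPM on LD and 3.51 ± 0.512 TPM on CD, and its highest LD mouse, at 8.81 TPM, reached above the lowest Ddit3 mouse at 8.61 TPM.

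**Figure D1:**
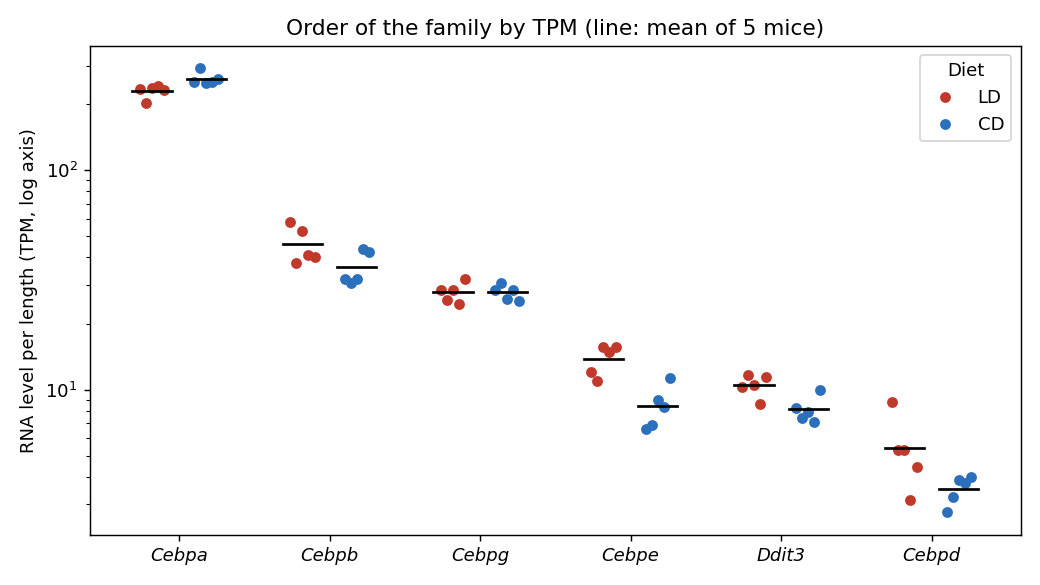
RNA level of each member in every mouse in TPM on a log axis, with genes ordered by their mean over the 10 mice; points are mice, the line is the mean of 5 mice, red is LD and blue is CD. Cebpa lies between 202 and 292 TPM, above every other member in every mouse.

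The share of each member in the summed family TPM is given as a description. Cebpa supplied 66.6 to 72.4% of the summed family TPM in the LD mice and 73.4 to 78.8% in the CD mice, so that the diets did not overlap. Cebpe supplied 3.41 to 4.63% on LD and 1.86 to 3.18% on CD, again without overlap. Cebpb made up 11.9 to 16.5% in the LD mice and 8.27 to 12.8% in the CD mice, Ddit3 2.57 to 3.96% and 2.01 to 2.81%, and Cebpd 0.934 to 2.5% and 0.835 to 1.18%, all of which overlapped. Cebpg kept a like share, on average 8.34% on LD and 8.04% on CD. The summed level was 333 ± 23.7 TPM on LD and 345 ± 18.0 TPM on CD (SD, n = 5). These shares are bound to each other, since they add up to 100% in a mouse, and were not tested.

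The fit over all 13494 genes called 24.9% of them at a Benjamini-Hochberg adjusted p below 0.05 and a fold change above 1.2, with 1859 genes (13.8%) higher and 1498 (11.1%) lower on LD. Limma on log2(TPM + 1) gave another split, 2227 higher and 740 lower. Its log2 fold changes had a median shift of 0.0729 towards LD against edgeR, which was not corrected. Of the 6 members, 1 was called (Cebpe, higher on LD), so that the family stood near the background of the whole table. The diets did not overlap in CPM for 18.5% of all genes tested and for 1 of the 6 members (Cebpa).

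Cebpa (Entrez 12606, chr7:35904312-35906951, plus strand, mm9) was lower on LD in every comparison of single mice. Its level was 328, 288, 334, 355 and 299 CPM in the LD mice and 391, 419, 362, 363 and 384 CPM in the CD mice. The highest LD mouse therefore lay below the lowest CD mouse, and the means were 321 ± 26.8 and 384 ± 23.5 CPM (SD, n = 5). The log2 fold change was -0.26 ± 0.0755 (SE), with an adjusted p of 0.0202 in edgeR's quasi-likelihood test. The fold, 0.835, fell just short of the fold change required for a call, so the gene passed the p threshold and not the size threshold. With DESeq2 the log2 fold change of -0.26 was just past that size (adjusted p 0.00339), on log2(TPM + 1) it was -0.18 with limma (adjusted p 0.0571), and without CD mouse 2 it was -0.23 with edgeR (adjusted p 0.0576). The limma value carries the median shift of 0.0729 towards LD.

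Cebpe (Entrez 110794, chr14:55329200-55331011, minus strand) was the member that rose. Its level was 7.87, 7.35, 10.3, 10.1 and 9.37 CPM in the LD mice and 4.84, 4.65, 6.12, 5.62 and 7.77 CPM in the CD mice. Only the highest CD mouse reached into the LD range, where it lay above 1 LD mouse. The log2 fold change was 0.63 ± 0.149 (SE; adjusted p 0.00680, edgeR), a fold of 1.55, on 1584 read pairs summed over the LD mice and 993 over the CD mice. Because Cebpe is a granulocyte gene, the granulocyte markers were set beside it. Of the 9 markers, 3 had enough counts to be tested and 1 was called, S100a8, a calcium-binding protein of neutrophils, at 6.58 ± 11.1 CPM on LD and 0.519 CPM on CD. S100a9, its partner, stood at 9.32 ± 16.3 CPM on LD and 0.955 ± 0.267 CPM on CD (adjusted p 0.0635, edgeR). Both LD means rest on mouse 2: without it they were 1.63 ± 0.369 CPM for S100a8 and 2.02 ± 0.402 CPM for S100a9 (SD, n = 4), and both genes were then called (log2 fold changes 1.65 and 1.08, adjusted p 6.47e-04 and 0.00541, edgeR). The S100a8 call was lost when any 1 of the CD mice was left out (adjusted p 0.0794 to 0.0921). Ly6g, the third marker tested, did not follow them (log2 fold change 0.04, adjusted p 0.935, edgeR). Mpo and Ngp, which granulocyte precursors express, had no count in any CD mouse, and on LD nearly all of theirs came from mouse 2, with 58 of 60 read pairs for Mpo and 468 of 481 for Ngp. The summed markers of every LD mouse lay above those of every CD mouse, and their part in the Cebpe difference was not tested. The LD mouse with 102 CPM of granulocyte RNA had the lowest Cebpe level of its group, 7.35 CPM. Without that mouse the log2 fold change of Cebpe was 0.70 ± 0.149 (adjusted p 0.00408, edgeR).

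**Figure D2:**
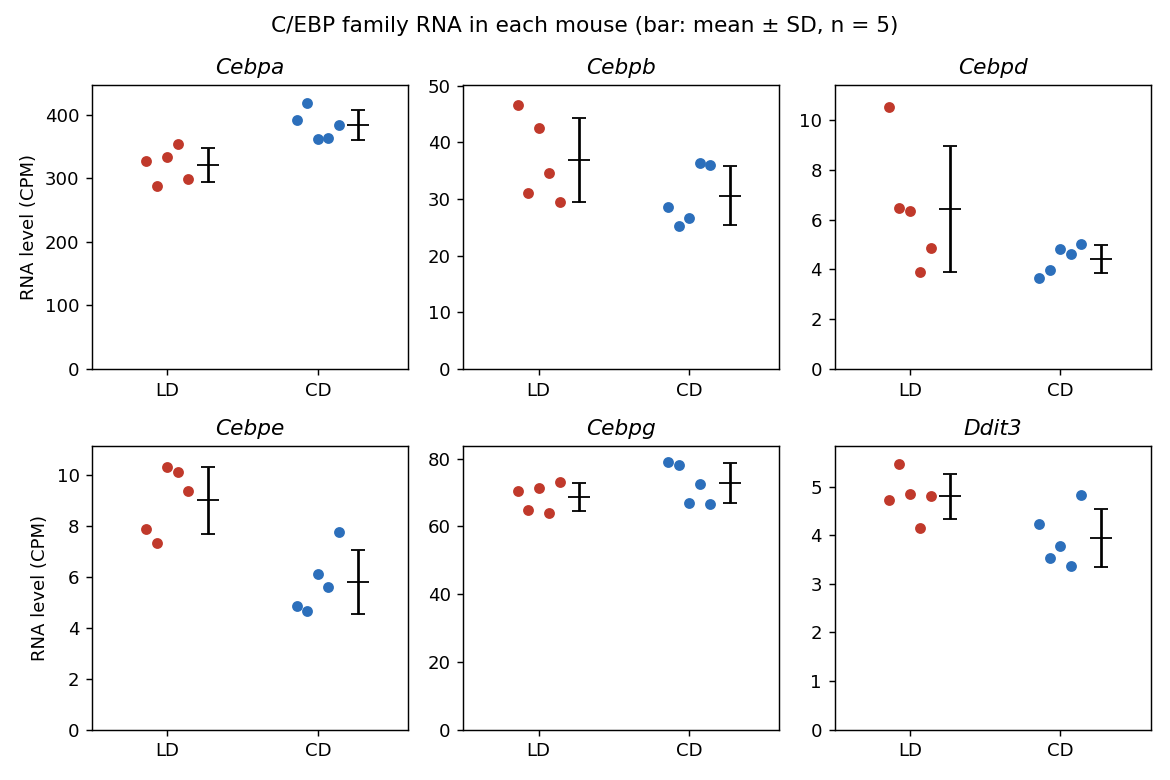
RNA level of each member in CPM on linear axes that start at 0; points are mice, the bar is the mean ± SD of 5 mice, red is LD and blue is CD. The 5 LD mice lie below the 5 CD mice for Cebpa (288 to 355 against 362 to 419 CPM), and 1 CD mouse enters the LD range for Cebpe.

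The cytokine-induced members gave higher means on LD that did not pass the test. Cebpb (Entrez 12608, chr2:167514415-167515932, plus strand) was at 46.7, 31, 42.6, 34.7 and 29.6 CPM on LD and 28.6, 25.3, 26.6, 36.3 and 36 CPM on CD. The log2 fold change was 0.27 ± 0.145 (SE; adjusted p 0.187, edgeR), the diets overlapped, and without LD mouse 1 it was 0.17 (adjusted p 0.373). Cebpd (Entrez 12609, chr16:15887379-15889638, plus strand) was at 10.5, 6.47, 6.36, 3.91 and 4.86 CPM on LD and 3.66, 3.97, 4.80, 4.60 and 5.01 CPM on CD. Its log2 fold change was 0.54 ± 0.222 (SE; adjusted p 0.0848, edgeR) and leaned on 1 mouse: without LD mouse 1 it was 0.29 (adjusted p 0.210), and without LD mouse 4, the lowest of its group, it was 0.68 (adjusted p 0.0250). Across the 10 mice the log2 levels of Cebpb and Cebpd correlated at r = 0.71, and at 0.61 once the mean of each diet was removed, the highest value among the 15 pairs of members after that step. LD mouse 1 was the highest of the 10 mice for both genes, and r without that mouse was not computed. The points share library and depth, and the value is given as a description.

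The partner proteins were not called. Cebpg (Entrez 12611, chr7:35831441-35841585, minus strand) was at 70.6, 64.8, 71.3, 63.9 and 73.0 CPM on LD and 79.0, 78.2, 67.0, 72.6 and 66.7 CPM on CD, with a log2 fold change of -0.08 ± 0.0696 (SE; adjusted p 0.414, edgeR), the smallest of the family in size. Ddit3 (Entrez 13198, chr10:126727849-126733344, plus strand) was at 4.74, 5.46, 4.84, 4.15 and 4.81 CPM on LD and 4.24, 3.52, 3.77, 3.37 and 4.83 CPM on CD. Its log2 fold change was 0.28 ± 0.129 (SE; adjusted p 0.119, edgeR), and limma on log2(TPM + 1) gave 0.33 with an adjusted p of 0.0273, which would make it a call. That limma value also carries the median shift of 0.0729 towards LD, which was not corrected.

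Genes known to act above or below the family were then examined in lists written with earlier results of these data known. Their counts are to be read against the 13.8% of all tested genes called higher and the 11.1% called lower on LD. Of 9 genes for the signals that induce Cebpb and Cebpd and for C/EBPα turnover, 1 was lower on LD and none higher (median log2 fold change -0.09, and -0.00187 over all genes tested). The one that fell was Il1r1, the interleukin-1 receptor, at 20.5 ± 2.95 CPM on LD and 29.6 CPM on CD (log2 fold change -0.53), a call lost without LD mouse 4 (adjusted p 0.0511, edgeR). Il6st, the shared signalling subunit of the interleukin-6 receptor, had an adjusted p of 0.372 in edgeR and a mean of 227 CPM on LD and 242 CPM on CD. Stat3, which carries that signal to the nucleus, averaged 101 and 100 CPM (adjusted p 0.839, edgeR).

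Of 10 hepatocyte genes known as C/EBPα targets, 4 fell on LD and none rose (median log2 fold change -0.28). Hamp, which encodes the iron hormone hepcidin, changed most, at 71.6 ± 48.8 CPM on LD and 282 CPM on CD (log2 fold change -1.98, adjusted p 0.0104, edgeR). Cps1, the entry enzyme of the urea cycle, went from 6949 CPM on CD to 2757 ± 864 CPM on LD, a log2 fold change of -1.33. G6pc, the last step of glucose release, had -1.20, and Tat, tyrosine aminotransferase, -0.88. The diets did not overlap for Hamp, Cps1 and G6pc and overlapped for Tat, whose call was lost without LD mouse 3, 4 or 5 or CD mouse 1, 2 or 3 (adjusted p 0.0512 to 0.0614, edgeR). The other 6 were not called, among them Alb and Pck1, whose log2 fold change of -0.49 had an adjusted p of 0.204 in edgeR (0.0455, a call, without CD mouse 5).

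Of 12 acute phase genes tied to C/EBPβ and C/EBPδ, 7 rose and 1 fell on LD (median log2 fold change 0.85). Lcn2, an iron-scavenging lipocalin, rose from 1.38 to 27.9 ± 4.44 CPM (log2 fold change 4.32, adjusted p 7.15e-06, edgeR). The serum amyloid genes Saa2 and Saa1 had log2 fold changes of 3.32 and 2.86 and Orm2, an orosomucoid, 3.0. Saa1 and Saa2 are close copies of each other, as Orm1 and Orm2 are, so that counting can split their reads unevenly. The gene called lower was Fgb, the fibrinogen beta chain, with -0.76. Crp was also lower, at -0.23 (adjusted p 0.0237, edgeR), with every LD mouse below every CD mouse, but fell short of the fold change for a call. Not all genes of the group moved: Orm1 had a log2 fold change of -0.03 and an adjusted p of 0.843 in edgeR.

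Of 14 genes of the stress response of ATF4 and CHOP, 3 rose and 2 fell on LD (median log2 fold change 0.09), near the 13.8% and 11.1% of all genes. Atf3, a stress-induced bZIP factor, rose from 1.93 to 7.44 ± 2.06 CPM (log2 fold change 1.94), and Vldlr, a lipoprotein receptor, had 1.1. The third to rise, named after its value was seen because it lies below 1 CPM, was the death receptor Tnfrsf10b at 0.882 CPM on LD and 0.204 CPM on CD. Atf4, the factor that switches Ddit3 on, fell from 118 to 91.7 ± 6.24 CPM (log2 fold change -0.37, adjusted p 0.00162, edgeR), and Ero1l, an oxidase of the endoplasmic reticulum, had -0.30, a call lost without CD mouse 3 (adjusted p 0.0517, edgeR). For Atf4 every LD mouse lay below every CD mouse.

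Markers of other cells were mixed. Of 8 macrophage genes, 1 rose on LD, Cd68, from 8.46 to 16.5 ± 4.03 CPM, while the most abundant ones, Clec4f and Csf1r, had adjusted p values of 0.760 and 0.630 in edgeR. The macrophage genes summed to 289 to 819 CPM on LD and 286 to 549 CPM on CD, with the highest value in LD mouse 2. Of 6 adipocyte genes, 2 were tested: Fabp4, a fatty acid binding protein, rose (log2 fold change 1.41) and Adrb3 fell (-0.61), the latter not called without LD mouse 3, 4 or 5 or CD mouse 2, 3 or 4 (adjusted p 0.0513 to 0.0896, edgeR). Lep and Plin1, which define adipocytes, had 0 counts in all 10 mice and Adipoq had 2 read pairs on LD and 7 on CD. Of 5 hepatocyte genes, Ahsg fell (log2 fold change -0.55), and Alb and the transferrin gene Trf were not called. The part of macrophages and granulocytes in the values of the family was not tested.

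The genes whose log2 CPM ran most like each member over the 10 mice, among 12072 genes with a mean of at least 1 CPM, are given as a description. For Cebpa they were Pi4k2a (r = 0.97), H13 (0.96) and Hspa9 (0.95), with r within the LD mice of 0.97, 0.90 and 0.92 and within the CD mice of 0.88, 0.86 and 0.79. For Cebpe they were Ube2e2, Hhipl2 and Ephx1, all at r = 0.98, and within the LD mice 0.93, 0.88 and 0.99. For Cebpb they were Gle1 (0.93), Pank1 (0.91) and Zfyve1 (0.91), for Cebpd Pus10 (0.94), Aatk (0.91) and Ppm1k (0.91). Cebpg ran most like Txnl1 (0.91), Sp3 (0.87) and Serp1 (0.86), and Ddit3 most like Gja1 (0.94), Tldc1 (0.92) and Hspa14 (0.90). A diet difference in both genes of a pair raises r, and within-diet values rest on 5 mice. Some pairs were loose within a diet, such as Ddit3 and Hspa14 with 0.53 on LD and Cebpd and Ppm1k with 0.48 on CD.

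H3K27ac marks active promoters and enhancers, and its peaks covered very different shares of the window of 50 kb either side of each start site. Cebpa lay in the most acetylated window, 55.3 ± 2.65% covered on LD and 58.0 ± 0.808% on CD (SD, n = 3), and Cebpd in the least, 10.1 ± 2.12% and 7.47 ± 0.231%. Over all genes with any peak in the window, the median cover per mouse ran from 10 to 12.6%. The merged peak over the Cebpa start site, chr7:35900001-35938000, was 38000 bases long, longer than 99.7% of the 50205 H3K27ac loci. In single mice the peak there was 21600 to 22600 bases long on LD and 21800 to 22200 on CD.

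In windows of 50 kb either side the diets were set apart at 5 of the 6 members. At Cebpb the cover was 46.4, 43.8 and 44.6% in the LD mice and 38.0, 33.4 and 34.6% in the CD mice. At Ddit3 it reached 29.6, 29.8 and 23.8% on LD, against 23.6, 22.8 and 21.4% on CD, at Cebpe 19.0, 16.0 and 16.0% against 15.6, 14.4 and 14.2%, and at Cebpd 12, 10.4 and 7.80% against 7.60, 7.60 and 7.20%. In these 4 windows every LD mouse was above every CD mouse, as in 23.2% of the 20412 windows with a peak. At Cebpa it came to 56.3, 57.3 and 52.3% on LD, against 57.5, 57.5 and 58.9% on CD, every CD mouse above every LD mouse, as in 4.95% of windows. Cebpg overlapped, at 39, 36.4 and 30.8% on LD and 35.4, 33.8 and 37.2% on CD. The two-sided exact permutation test gave p = 0.1 for the 5 windows that did not overlap, the smallest it can give with 3 mice against 3, and 1 for Cebpg, so that no window can pass 0.05. The count rests on the width of the window. With 20 kb either side it was 4 of 6, the same 4 members higher on LD, against 17.8% of all windows, and Cebpa overlapped (p = 0.2, exact test). With 100 kb it was 2 of 6, Cebpb and Cebpe, against 29.4%, while Cebpa (p = 0.6, exact test), Cebpd and Ddit3 overlapped. The Cebpa difference of -2.67 percentage points also leaned on LD mouse 3, without which it was -1.17. Without LD mouse 1 the difference went from 2.60 to 1.63 points at Cebpd and from 2.27 to 1.27 at Cebpe.

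The LD lists held more peak sequence in all, which bears on these values. When each mouse was scaled to its total peak length, an alternative added after the data were seen, the diets stayed apart at 2 windows. They were Cebpb, at 43.1% on LD and 37.0% on CD, and Cebpa, at 53.0 and 60.7%, against 14.3% of all windows higher on LD and 15% lower. At Cebpb the peak over the start site was 17800, 18000 and 14400 bases long on LD and 13800, 13800 and 13400 on CD. Cebpe was the one member whose start site lay outside a peak in most mice: a peak covered it in 1 LD mouse, and in the other 5 mice the nearest peak began 390 to 590 bases away.

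**Figure D3:**
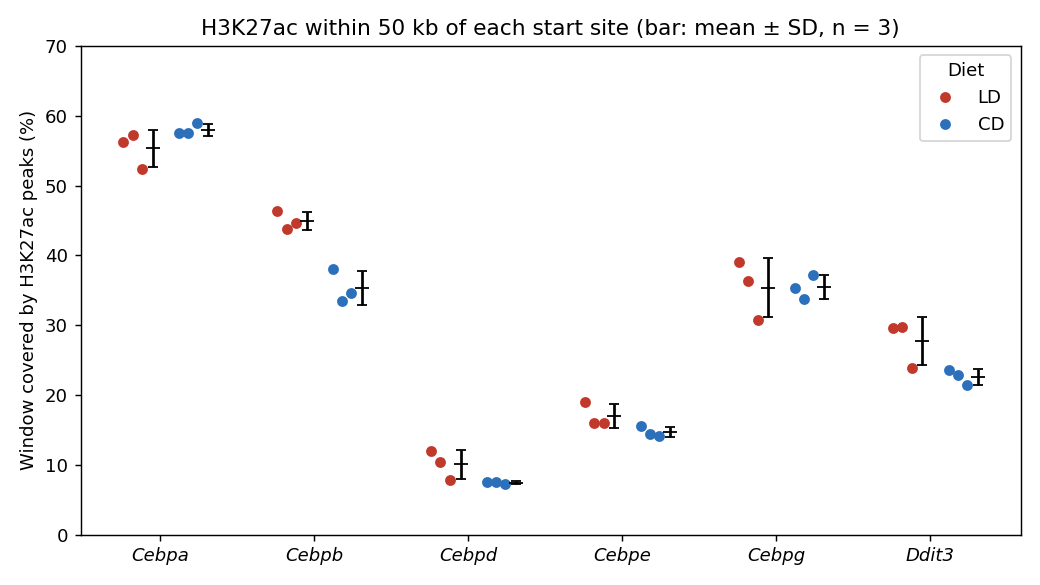
Share of the window of 50 kb either side of each start site covered by H3K27ac peaks, in percent; points are mice, the bar is the mean ± SD of 3 mice, red is LD and blue is CD. The LD mice lie above the CD mice at Cebpb, Cebpd, Cebpe and Ddit3 and below them at Cebpa, and the windows of Cebpa and Cebpg overlap because their start sites lie 62.7 kb apart.

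Of the 37 merged H3K27ac loci in the 6 windows, counted once each, none was of 1 diet, meaning a peak in all 3 mice of a diet with no peak on the opposite one, against 3.89% of all loci. In 27 of them all 6 mice had a peak. Another 5 were in 2 of 3 LD mice and no CD mouse, which is near the 11.5% of all loci that had a peak in at least 2 mice of one diet only. They lay at Cebpb (chr2:167496401-167497400), Cebpd (chr16:15893601-15894800 and chr16:15895201-15897200) and Ddit3 (chr10:126762001-126763800 and chr10:126776201-126777600).

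C/EBPα itself occupied the loci of its own family, with the exception of Cebpd. There were 10 C/EBPα loci within 50 kb of Cebpa, 7 at Cebpb, 6 at Ddit3, 4 at Cebpe, 4 at Cebpg and 0 at Cebpd, where the median over all genes was 2. Cebpa had more than 98.6% of genes and Cebpb more than 92.6%. Of the 30 loci, each counted once, 29 lay on an H3K27ac locus and 14 on an Hnf4α locus, which is 96.7% and 46.7% against 75.4% and 54.6% of all C/EBPα loci.

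The highest C/EBPα peak near a member stood 1035 bases upstream of Cebpb (chr2:167513223-167513537), which the annotation places in an intron of Tmem189. It was 46.5 and 63.0 normalised tags high in the LD mice and 139.5 and 91.0 in the CD mice, higher on average than 94.5% of the loci found in all 4 samples. Cebpa carried its highest peak 185 bases upstream of its own start site (chr7:35903970-35904284, outside annotated genes), at 33.5 and 31.5 on LD and 44.0 and 54.0 on CD. At Cebpg it lay 382 bases downstream of the start site, in an intron of the gene (chr7:35841032-35841374), at 35.5 and 27.5 on LD and 63.0 and 39 on CD. At Ddit3 the highest lay 20880 bases downstream, in a coding exon of Mars (chr10:126748552-126748907), at 37.0 and 64.0 on LD and 88.0 and 70 on CD. In these 4 loci both CD samples were above both LD samples, as in 46.4% of all loci found in every sample. Once heights were divided by the median of their sample this held at 2 of the 4, Cebpb and Cebpg, while Cebpa and Ddit3 overlapped. A further Ddit3 peak, 311 bases upstream of the start site (chr10:126727381-126727695), was at 15.5 and 21.5 on LD and 69.0 and 40.5 on CD.

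Of the 13 loci found in all 4 samples, both CD samples were higher in 10, against the same 46.4%, and both LD samples in 0, as in 8.35%. The median ratio of LD to CD heights was 0.652 near the members and 0.741 over all 13813 loci. With heights divided by the median of their sample, an alternative added after the data were seen, 6 of 13 were higher on CD, against 34.9% of all. With 2 samples against 2 no exact test can pass 0.05, and none was run. Of the 30 loci, 5 were of 1 diet, against 20.5% of all C/EBPα loci, a share that pools LD and CD and was not split by diet. The 4 of LD lay at Cebpa (chr7:35906347-35906597, in the exon after the coding part, heights 12 and 13), Cebpe (8100 bases upstream, 10.5 and 6.5), Cebpg (1117 bases downstream in an intron, 26.0 and 40) and Ddit3 (22254 bases downstream, 21.5 and 34.5). The one of CD lay 16887 bases downstream of the Cebpe start site, at 10 and 9.5. A height of 1 stands for 2 tags.

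Of the 10 C/EBPα loci just described, 8 are shown with their sequence, because they are where C/EBPα occupies the genes of its own family. They were read from the mm9 genome, each 81 bases long and written 5′ to 3′ on the strand of the member, with capitals for matches to TTGCNNAA on either strand. The highest peaks of Cebpa and Cebpg held no match in their 201 central bases, and for them the 81 bases at the centre of the locus are given. Not shown are the highest Ddit3 locus, in Mars, which held no match either, and the LD locus in the Cebpa exon, which held 2.
Cebpb, chr2:167513339-167513419: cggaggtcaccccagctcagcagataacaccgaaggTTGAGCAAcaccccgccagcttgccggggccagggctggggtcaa
Cebpa, chr7:35904087-35904167: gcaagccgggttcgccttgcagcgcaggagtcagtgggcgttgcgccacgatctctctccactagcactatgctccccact
Cebpg, chr7:35841163-35841243: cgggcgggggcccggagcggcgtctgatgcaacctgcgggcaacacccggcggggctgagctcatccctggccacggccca
Ddit3 upstream, chr10:126727502-126727582: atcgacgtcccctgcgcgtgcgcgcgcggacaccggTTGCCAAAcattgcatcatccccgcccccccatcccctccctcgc
Cebpg, of LD, chr7:35840438-35840518: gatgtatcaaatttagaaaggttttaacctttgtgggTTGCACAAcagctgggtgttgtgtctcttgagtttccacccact
Cebpe, of LD, chr14:55339165-55339245: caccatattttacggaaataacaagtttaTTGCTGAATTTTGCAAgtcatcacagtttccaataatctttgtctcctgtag
Ddit3, of LD, chr10:126750064-126750144: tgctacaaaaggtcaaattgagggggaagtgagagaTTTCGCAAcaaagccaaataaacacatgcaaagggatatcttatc
Cebpe, of CD, chr14:55314103-55314183: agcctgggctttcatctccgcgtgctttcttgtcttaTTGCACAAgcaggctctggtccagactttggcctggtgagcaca

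Over the 201 central bases, 12 of the 30 C/EBPα loci near the members held a match, near the 40.6% of all C/EBPα loci, while 18.1% of Hnf4α loci did. All 5 loci of 1 diet held at least 1 match, and the share over all loci of 1 diet was not computed. At the Cebpe locus of LD only 1 of the matches marked above lay within the 201 bases. The 300 bases upstream of the 6 start sites held none, where 11% of all promoters of that length had one. A match is a description of the letters and not a measured site.

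Hnf4α, the nuclear receptor that C/EBPα often shares sites with in hepatocytes, had 13 loci within 50 kb of Cebpb, 10 at Cebpa, 6 at Ddit3, 5 at Cebpd, 5 at Cebpg and 4 at Cebpe. The highest of all lay 48874 bases downstream of Cebpa (chr7:35953067-35953306, between genes), at 178.5 and 158.2 normalised tags in the LD mice and 141 and 312 in the CD mice, higher than 99.2% of loci found in all samples. At Cebpb the highest coincided with the C/EBPα peak upstream of the gene, at 115 and 121.5 on LD and 89.0 and 148 on CD. At Cebpe it lay 8056 bases upstream (chr14:55338957-55339178), at 55.2 and 59.8 on LD and 51.2 and 103 on CD, the place where the C/EBPα peak of LD was found. At Cebpg it was the locus 24545 bases upstream, between the 2 genes, at 93.0 and 67.5 on LD and 79.5 and 133.8 on CD. At Ddit3 it lay 118 bases upstream, at 42.0 and 41.8 on LD and 23.5 and 36.2 on CD. Heights overlapped between the diets at all of these but the one at Ddit3. Divided by the median of their sample, the loci of Cebpa, Cebpe and Cebpg had both CD samples above both LD samples, Cebpb still overlapped and Ddit3 was still higher on LD. No Hnf4α locus of Cebpd was found in all 4 samples. The one 181 bases upstream was 37.2 high in 1 LD mouse and 28.2 and 42.0 in the CD mice. Here a height of 1 stands for 4 tags.

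Hnf4α heights followed no common direction. Of the 25 loci found in all 4 samples, both LD samples were higher in 6, as in 16.6% of all such loci, and both CD samples in 1, as in 2.62%. Of these 6, 5 lay around Cebpb, where the largest ratio was at chr2:167545099-167545354 with 59.5 and 46.0 on LD and 15.2 and 21.8 on CD. After division by the median of each sample, 8 of the 25 were higher on LD and 8 on CD, against 24.1% and 29.3% of all such loci, so that the split over the family rests on the scaling. At Cebpb it did not turn: 7 of its 10 loci were then higher on LD and 0 on CD, 4 of the 5 above among them. Those higher on CD after scaling lay at Cebpa (5, of which 2 are also in the Cebpg window), Ddit3 (2) and Cebpe (1). Over all loci 11.4% were of 1 diet, a share that pools LD and CD and was not split by diet. Of the 41 loci near the members 5 were of 1 diet, and all 5 were of LD. They were 2 at Cebpd, 2568 and 6738 bases downstream (heights 32.0 and 19.2, and 20.2 and 15.2), 1 at Cebpb 5366 bases downstream (47.5 and 37.5), 1 at Cebpa 11181 bases downstream (25.2 and 24.2) and 1 at Cebpe 24241 bases downstream (16.2 and 15.5). The CD sample with the lowest median height, sample 1, is 1 of the 2 samples that had to lack a peak.

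**Figure D4:**
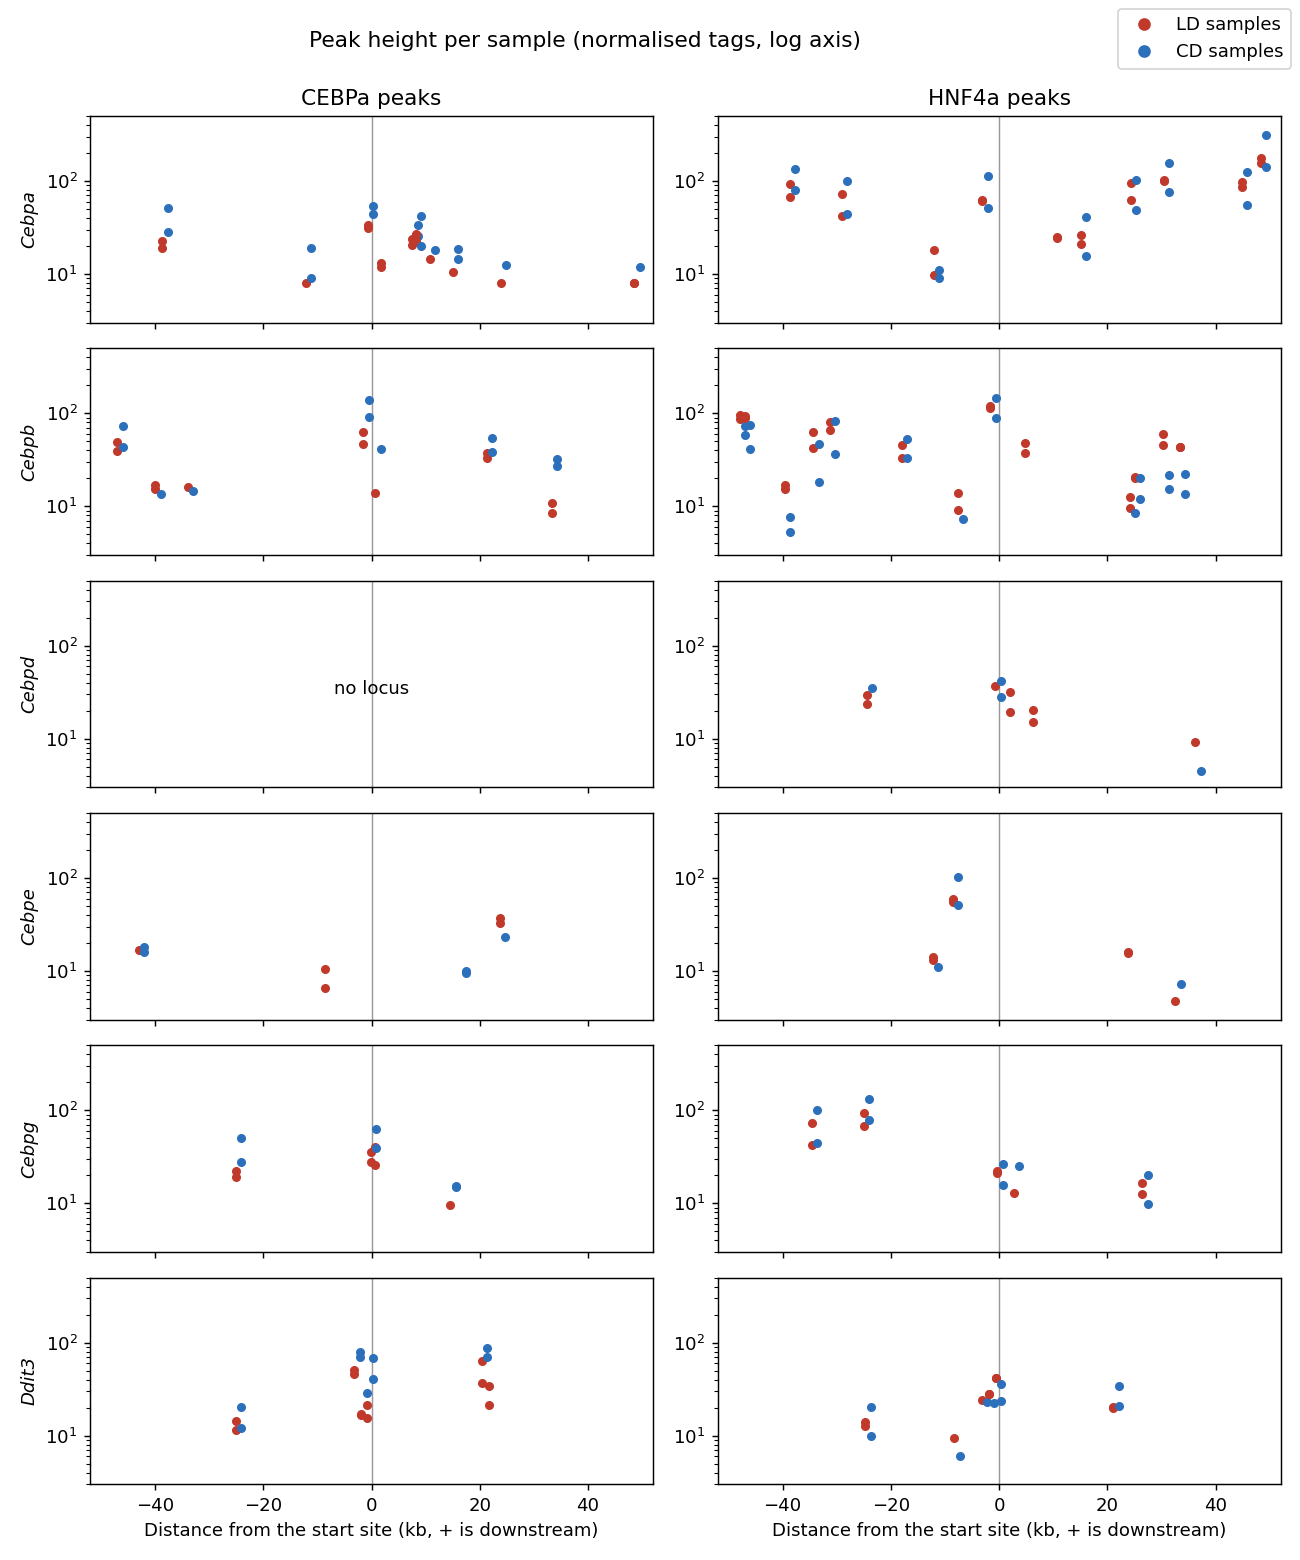
Height of C/EBPα (left) and Hnf4α (right) peaks in each sample, in normalised tags on a log axis, against distance from the start site in kb; each point is 1 sample at 1 locus, red is LD and blue is CD. C/EBPα points of CD lie above those of LD at 10 of 13 loci found in all samples, and no C/EBPα locus lies within 50 kb of Cebpd.

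PCHi-C measures which restriction fragments meet a captured promoter, and the lists used here hold pairs within 1 Mb with a CHiCAGO score of at least 5 in the pooled samples of a diet. The baits differed by member. Cebpa, Cebpb, Cebpe and Cebpg were baited. The fragment of Cebpd was not, and entered only as the partner of other baits. That of Ddit3 is shared with Mbd6 and was baited for the latter. The Cebpb bait is named for Cebpb, but its fragment is shared with A530013C23Rik, so contacts of these genes cannot be told apart. In all there were 112 pairs: 50 for Cebpb, 27 for Cebpe, 22 for Cebpa, 8 for Cebpg, 3 for Cebpd and 2 for Ddit3, where the median baited fragment had 6. No pair joined the start sites of 2 members, but partners of Cebpa such as chr7:35837040-35840141 (8.9 on LD and 6.95 on CD) lay within the Cebpg gene. Of the 112 pairs, 23 were listed on 1 diet only, that is 20.5%, against 46.2% of all pairs. Of the 23, 14 were on LD and 9 on CD, where over all pairs 45893 were on LD only and 44488 on CD only. Neighbouring fragments share reads of one contact, and with 1 pooled list per diet there is no replicate error.

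Cebpb (fragment chr2:167507276-167517688, shared with A530013C23Rik) had partners on one side only, 64.1 to 324 kb downstream. The highest score of the family stood at 33.9 on LD and 34.0 on CD, 207 kb downstream (chr2:167719235-167722716). The next on LD was 24.5, at 166 kb, where CD had 25.1, and the next on CD was 29.1, at 199.8 kb, where LD had 20.7. In the 38 pairs listed on both diets LD was higher in 15. Of its 48 partners that were not baits themselves, 34 carried an H3K27ac locus, 22 an Hnf4α locus and 11 a C/EBPα locus, against 29.3%, 11.2% and 9.10% of all such partner fragments.

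Cebpa (fragment chr7:35898464-35906389) had partners on both sides, 38.0 to 109 kb away. Of its 22 partners 17 lay upstream, on the side of Cebpg. The highest scores were 94.1 kb upstream, at 15.5 on LD and 19.8 on CD, and 86.6 kb upstream, at 15.8 and 14.7. An H3K27ac locus lay on 15 of the 22. On the downstream side the partner at chr7:35949925-35957638 holds the highest Hnf4α peak described above and scored 5.16 on LD and 6.18 on CD. The same fragment was a partner of Cebpg (fragment chr7:35840142-35849792), at 9 on LD and 8.53 on CD. The 2 baits had 5 partner fragments in common, side by side at chr7:35949925-35960920, 4 of them listed for both baits on both diets. The highest scores of Cebpg came from fragments of this stretch, 10.1 on LD at 116.5 kb from its start site and 12.4 on CD at 116.2 kb.

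Cebpe (fragment chr14:55329913-55333399) had 27 partners, of which 24 were listed on both diets and 3 on LD only. Its highest scores lay 71.8 and 73.5 kb upstream, at 22.7 and 22.3 on LD and 21.5 and 24.2 on CD. Of 22 partners that were not baits, 2 carried an H3K27ac locus, where 29.3% of all such fragments did. An Hnf4α locus and a C/EBPα locus lay on 1 each, against 11.2% and 9.10% of all. The 3 pairs of LD included the promoters of Psmb5 (score 8.19) and of Acin1 (8.18). Cebpd was a partner of Spidr, at 13.2 on LD and 10.6 on CD. The Ddit3 fragment had 2 partners, both on LD only with scores of 5.43 and 6.66, near the lowest score listed. Of the 13 genes tested with a promoter on a partner fragment, 1 was called higher on LD, Psmb5 (log2 fold change 0.28), and 1 lower, Baz2a (-0.46), a partner of the Ddit3 fragment. Over all tested genes 13.8% were called higher and 11.1% lower, which 1 of 13 each way does not exceed. Both were named after their values were seen.

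**Figure D5:**
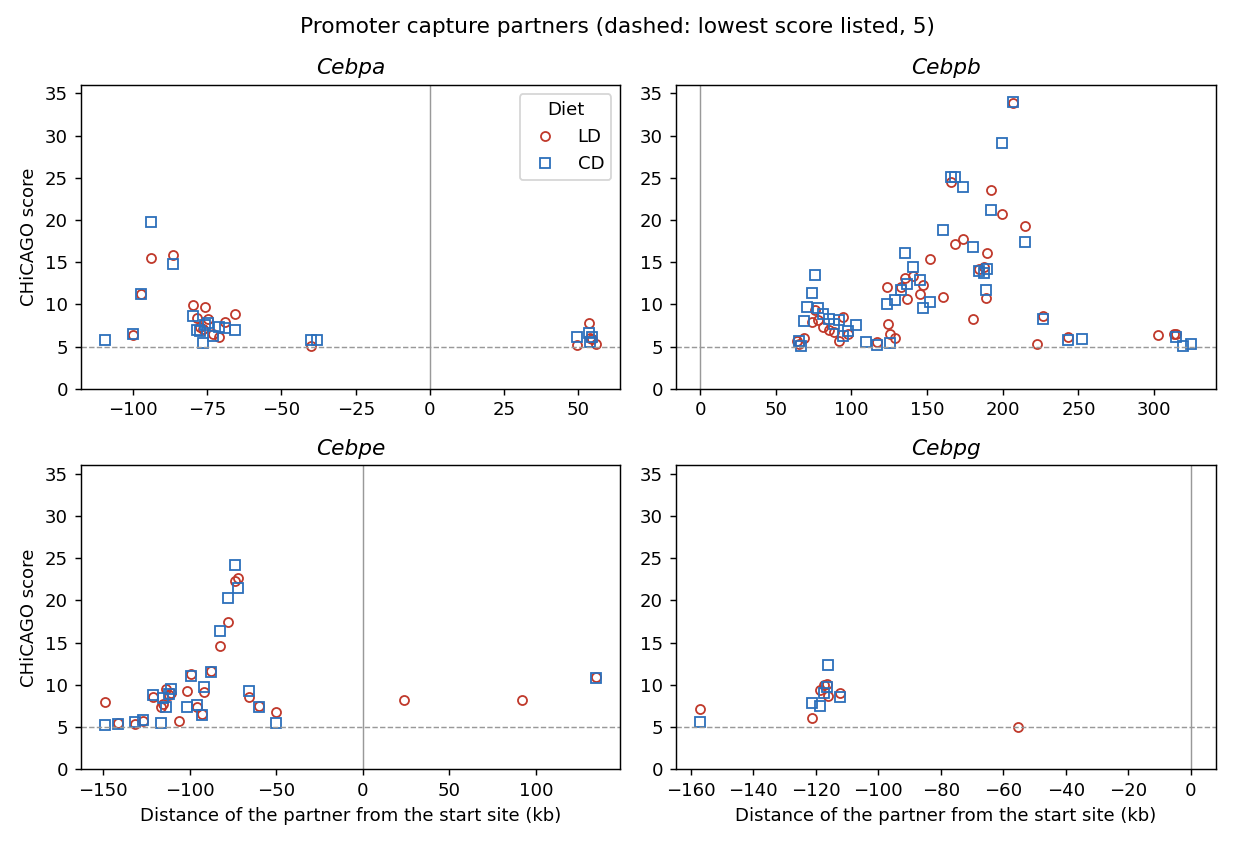
CHiCAGO score of each partner fragment of Cebpa, Cebpb, Cebpe and Cebpg against its distance from the start site in kb, positive downstream; circles are LD, squares are CD and the dashed line is the lowest score listed, 5. The highest scores, 33.9 on LD and 34.0 on CD, are those of Cebpb at 207 kb, and some fragments part by diet, such as Cebpb at 180 kb with 8.28 on LD and 16.8 on CD.

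Topologically associating domains (TADs), called once per diet on pooled Hi-C, held Cebpa and Cebpg together, at chr7:35780000-36060000 on LD and chr7:35760000-36060000 on CD. All 22 partners of Cebpa and all 8 of Cebpg lay in the LD domain. The LD domain held 41 of the 50 partners of Cebpb, 20 of the 27 of Cebpe, 2 of the 3 of Cebpd and 0 of the 2 of Ddit3. Lengths differed by diet at each member: 270 kb on LD and 295 kb on CD at Cebpb, 330 and 355 kb at Cebpd, 180 and 145 kb at Cebpe and 275 and 260 kb at Ddit3. There was 1 call per diet, so these lengths carry no error.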

How the data were processed

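The members and gene lists were chosen with earlier results of these data known. The authors aligned RNA reads to mm9 with STAR 2.5 and counted read pairs per RefSeq gene by strand with featureCounts 1.5.0-p1; the deposited counts are not normalised. TPM values were deposited beside them; 1 CD column of TPM has a number matching no label and was used as a mouse of its group. The authors' own columns of fold changes and adjusted p-values and their TAD separation score were not used. Per the labels ChIP reads were processed with Bowtie 0.12.8 and Picard 1.110. The deposited H3K27ac lists hold SICER intervals per mouse, and the deposited Hnf4α and C/EBPα lists give a HOMER signal, the normalised tag count, per peak and sample. The CHiCAGO score was deposited by the authors for pooled replicates of a diet, and TADs likewise.

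Counts were fitted with edgeR 4.0.16 in R 4.3.3 (TMM, filterByExpr, robust quasi-likelihood), with Benjamini-Hochberg adjustment over 13494 genes; the fit recovered 200 of 200 simulated 2-fold changes, with 12 false calls. DESeq2 1.42.0 and limma 3.58.1 served as alternatives. The labels do not tie mice of one assay to those of another. Overlapping peaks were merged into loci and kept with a peak in at least 2 samples. Start sites are the 5′ ends of the table's gene spans. Sequences come from NCBIM37, the same assembly as mm9. The rule set for naming covered the members, up to 4 called genes of the largest change per list (with fewer than 2 called, also the 2 most abundant), the 3 genes most like each member, the highest C/EBPα and Hnf4α locus per member, loci of 1 diet and the highest-scoring partners. Named outside it were, among others, Fgb, Crp, Orm1, Pck1, Ly6g, Mpo, Ngp, Lep, Plin1, Adipoq, Tnfrsf10b, Psmb5, Baz2a and the further Ddit3 peak.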

Additional observations from a re-analysis of the deposited data

Results flagged for a closer look

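In LD mouse 2 the summed RNA of 9 granulocyte markers was 102 CPM, far from the next LD mouse at 5.67 CPM, and the gap took up 0.987 of the range of the group. The lowest LD mouse for Cebpa in TPM, at 202, lay apart from the next at 232.9 (gap 0.764 of the range), and the highest CD mouse, at 292, lay apart from the next at 261 (0.728). Of 40 groups of 5 mice checked for such a gap 3 had one, and chance alone gives about 1 in 20.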

How the results depend on the processing

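The direction of all 6 RNA differences was kept under every alternative run. Cebpe was called in each of them, with log2 fold changes of 0.63 to 0.72 and adjusted p values of 5.92e-04 to 0.0411, and 0.56 to 0.76 when 1 mouse was left out. The count of called members moved from 1 to 2 with DESeq2 and with its size factors in edgeR, where Cebpa joined with a log2 fold change of -0.26 in both, and to 2 with limma on log2(TPM + 1) and log2(TPM + 0.1), where Ddit3 joined at 0.33 and 0.36. On log2(TPM + 1) the log2 fold changes had a median shift of 0.0729 towards LD against edgeR. Leaving out 1 mouse gave 2833 to 3479 called genes, 1 to 3 called members, -0.30 to -0.22 for Cebpa, which was called in 5 of 10 such fits (without LD mouse 1, 3 or 4 or CD mouse 3 or 4), and 0.29 to 0.68 for Cebpd, called in 1. A test against the fold threshold itself called 1378 genes in place of 3357. The mouse numbers do not pair the diets (correlation of deviations -0.08 to 0.19), and a replicate block gave 3173 called genes and 1 called member, with adjusted p values of 0.0533 for Cebpa and 0.00287 for Cebpe, and left 0 calls among granulocyte and 1 among adipocyte genes.

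The H3K27ac difference at Cebpg turned to 3.33 percentage points higher on LD in a window of 20 kb, and ran from -1.86 to 2.24 when 1 mouse was left out. A window of 20 kb held 17 C/EBPα loci, 4 of them (23.5%) of 1 diet against 20.5% of all, 19 Hnf4α loci, 4 of them (21.1%) of 1 diet against 11.4% of all (12.2% near the members in the window of 50 kb), and 17 H3K27ac loci, 0 of them of 1 diet. Taking only peaks above the median height of their sample left 27 Hnf4α loci, 3 of them of 1 diet (11.1%, against 10.3% of all), and 26 C/EBPα loci, 7 of them of 1 diet (26.9%, against 20.9% of all, where all peaks gave 16.7% against 20.5%). H3K27ac loci of 1 diet numbered 1 of 36 when a peak had to cover 50% of the locus (5.39% of all), and 5 of 37 when 2 mice of a diet sufficed (11.5% of all). Heights divided by the sample median, a scaling chosen after seeing the data, left 6 of 13 C/EBPα loci, all higher on CD (34.9% of all loci, with 24.4% higher on LD), and 16 of 25 Hnf4α loci (24.1% of all higher on LD and 29.3% on CD) whose diets did not overlap. A score of at least 10 on either diet left 37 pairs. Of these, 7 (18.9%) reached 10 on 1 diet only, against 43.1% of all such pairs. All 7 were listed on both diets at the cut of 5, so none was missing from a list. Peak lists hold no reads outside peaks, so a site absent from a sample may lie just under the authors' threshold.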
